A study of Mus musculus with 6 samples.

Results

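The genes of glycolysis, the pentose phosphate pathway and pyruvate oxidation were followed in a mouse pre-B cell line that expressed an additional miR-26a or a sponge against the miR-26 family. The set was chosen by gene symbol and holds 34 genes, whose 52 probes on the array include every reporter probe that carries one of these symbols. Of the 34 genes, 27 had at least 1 probe bright enough to be tested, among 11273 annotated genes tested in all. Expression was measured on 6 one-colour microarrays, each of total RNA from 1676 cells, a line grown out of the bone marrow of SLP-65-/- LAT-/- mice, which lack 2 adaptor proteins of pre-B cell receptor signalling and therefore stop at the pre-B cell stage. All 6 samples were kept in excess IL-7, the growth factor of the line, and all were selected with puromycin after retroviral transduction. The groups differed in the vector: a control vector, hsa-miR-26a-2, or a sponge transcript that carries binding sites for miR-26 family members, with 2 samples per group from 2 independent experiments. The control for both constructs was the same empty vector, so that the comparisons with control share their control arrays, and the line is 1 cell line, so that no second genetic background was available.

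Glycolysis splits glucose to pyruvate in the cytosol. Its pace is set largely at the hexokinases, which trap glucose as glucose 6-phosphate, and at the phosphofructokinases, which are activated by fructose 2,6-bisphosphate, the product of the Pfkfb enzymes. Glucose 6-phosphate can also enter the pentose phosphate pathway, which makes NADPH and ribose for nucleotides, and pyruvate is either reduced to lactate or oxidised by the pyruvate dehydrogenase complex, which the Pdk kinases switch off. Proliferating lymphocytes are known for a high flux through these routes, and IL-7 is known to raise glucose uptake in lymphoid cells.

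A miRNA pairs with transcripts mainly through its seed, bases 2 to 8 counted from the 5′ end, and lowers their level or translation. The mature mouse sequences of the family (RefSeq, GRCm38.p6) are shown because both constructs are directed at this family, with the seed in capitals.
mmu-miR-26a-5p: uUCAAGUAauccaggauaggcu
mmu-miR-26b-5p: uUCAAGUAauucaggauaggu
The miR-26a sequence lies at chr9:119031811-119031832 (Mir26a-1) and chr10:126995543-126995564 (Mir26a-2), the miR-26b sequence at chr1:74394324-74394344, all on the plus strand, and both miRNAs share the seed UCAAGUA. Its complement, TACTTGA, was in 0 of the 52 member probes and in 0.431% of all 55681 probes of the array, which says nothing on the parts of the transcripts outside the probes.

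Values are log2 of the quantile-normalized signal, in which a difference of 1 is a 2-fold difference, and a gene is described by its brightest tested probe. Differences were tested with limma over all tested probes with the experiment as a block, and a gene passed at a Benjamini-Hochberg adjusted p below 0.05. The 2 arrays of a group correlated with r between 0.996 and 0.997 over the tested probes, and no spot was saturated. All 6 arrays were on 1 slide, with 1 slide column for each group, so that slide column and vector cannot be told apart. Each experiment likewise had its own slide row, so that slide row and experiment cannot be told apart. The pre-B cell label was borne out by its markers, since Cd79a, Cd79b, Igll1, Vpreb1, Vpreb2, Ebf1 and Pax5 were all above background and none passed against control in either arm. RNA from fewer cells and less RNA per cell cannot be told apart in such bulk samples.

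In miR-26a cells, 2 of the 27 tested genes fell and 5 rose against control. Pfkfb3 and Pdha1 were the genes that fell, and Hk2, Pfkl, Tpi1, Pgam1 and Pdk1 those that rose. The genes that fell were 7.41% of the members, against 5.86% of all genes tested, and those that rose were 18.5% of the members, against 5.19% of all genes tested. The median log2 difference was 0.17 for the members and 0.02 for all genes. In sponge cells 0 of 27 fell and 0 of 27 rose. The changes of all 27 genes are shown by role in the plot of log2 differences.

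**Figure D1:**
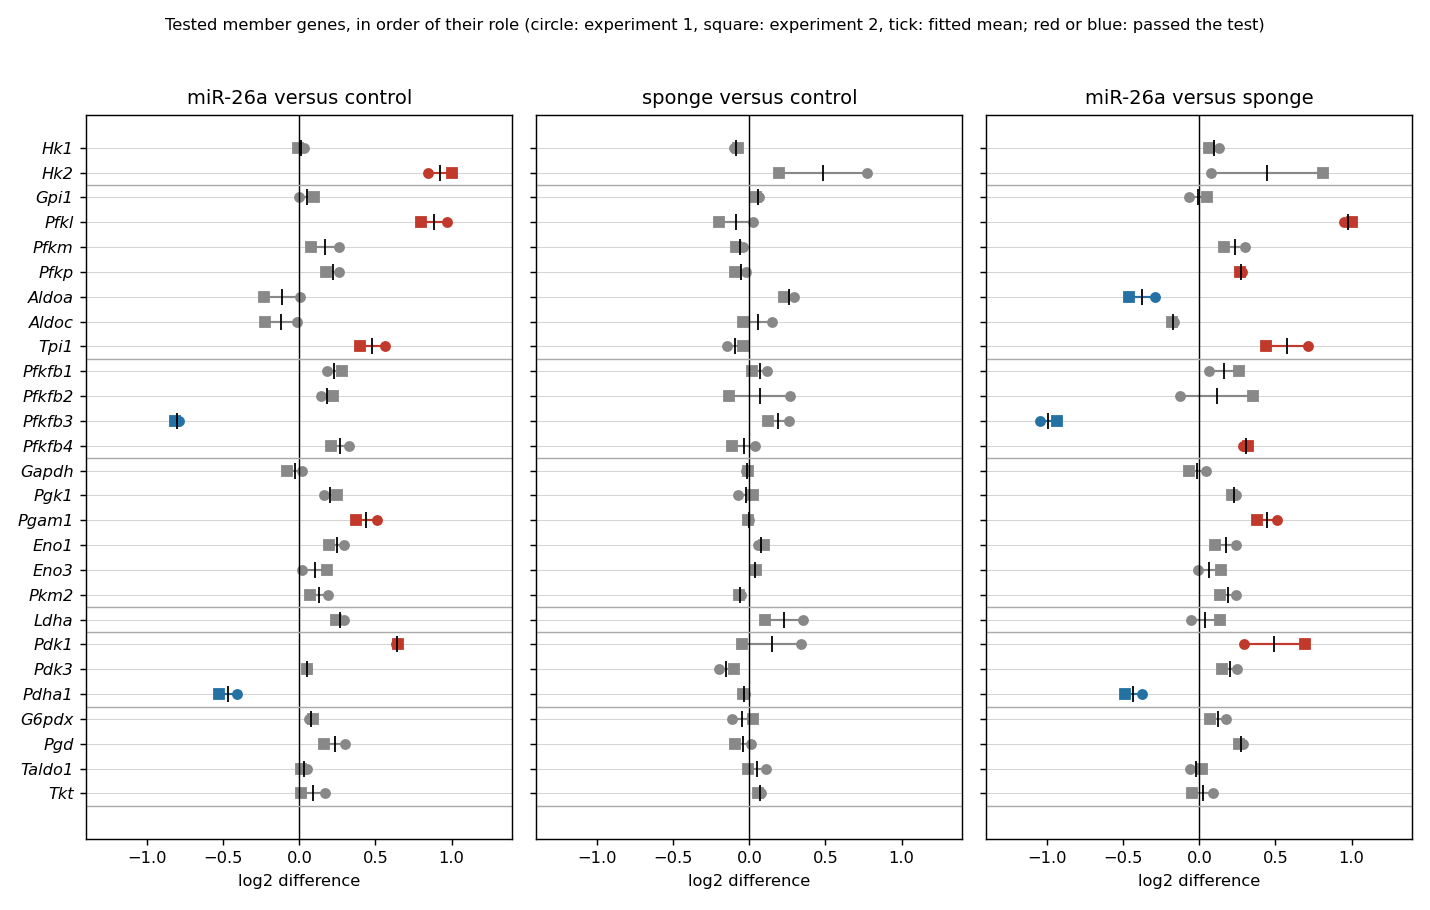
Log2 differences of the 27 tested genes for miR-26a versus control, sponge versus control and miR-26a versus sponge, with genes on the vertical axis grouped by role. Circles and squares are the differences in experiment 1 and experiment 2, ticks the fitted mean, and red or blue marks genes that rose or fell by the test. With miR-26a, 5 genes are red and 2 are blue, whereas all genes in the sponge panel are grey.

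Among the hexokinases, Hk2, the inducible form, rose with miR-26a. Its log2 signal was 7.88 and 7.42 on the control arrays, 8.73 and 8.43 on the miR-26a arrays, and 8.66 and 7.62 on the sponge arrays. Both miR-26a arrays lay above both control arrays, while the sponge arrays lay far apart and overlapped the range of both other groups. The difference of miR-26a from control was 0.93 ± 0.18 (SE), or 1.90-fold (limma, adjusted p = 0.0351). The sponge difference of 0.48 ± 0.18 did not pass (limma, adjusted p = 0.289). Hk1, the constitutive form, had 3 tested probes, with differences between 0.01 and 0.25 in miR-26a cells, and none of them passed. Hk3 was above background on 2 of 6 arrays and was not tested.

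The upper steps of glycolysis gave the next pair of genes that rose. Pfkl encodes the liver-type subunit of phosphofructokinase, which commits fructose 6-phosphate to glycolysis. It was at 9.41 and 9.42 in control cells, 10.38 and 10.22 in miR-26a cells, and 9.44 and 9.22 in sponge cells. The miR-26a arrays stood above all others with no overlap, and the control arrays lay within the range of the sponge arrays. Pfkl rose by 0.89 ± 0.08 or 1.85-fold (limma, adjusted p = 0.0069). The other phosphofructokinase genes showed smaller differences that did not pass, 0.17 for Pfkm and 0.22 for Pfkp. Tpi1 encodes triose phosphate isomerase, which interconverts the 2 triose phosphates made by aldolase. Its brighter probe read 13.45 and 13.29 in control cells, 14.02 and 13.69 in miR-26a cells, and 13.31 and 13.25 in sponge cells, with the miR-26a arrays above all others. The difference was 0.48 ± 0.09, or 1.39-fold (limma, adjusted p = 0.0307), and the dimmer probe, which lies elsewhere in the transcript, gave 0.62 ± 0.09 (limma, adjusted p = 0.0179). That probe read 11.69 and 11.49 in control cells, 12.44 and 11.98 in miR-26a cells, and 11.55 and 11.34 in sponge cells, with no overlap of the miR-26a arrays with the others. The dimmer probe, at chr6:124761923-124761982 (mm9, minus strand), is shown because an independent stretch of the transcript gave the same call.
Tpi1 probe A_55_P1988424: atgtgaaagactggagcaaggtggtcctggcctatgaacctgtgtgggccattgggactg
Gpi1, which converts glucose 6-phosphate to fructose 6-phosphate, Aldoa and Aldoc, the aldolases, had differences of 0.05, -0.11 and -0.12, none of which passed.

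In the lower part of the pathway Pgam1, the phosphoglycerate mutase of most tissues, was the gene that rose. It read 14.50 and 14.36 in control cells, 15.01 and 14.73 in miR-26a cells, and 14.50 and 14.36 in sponge cells. The control and sponge arrays were nearly the same, and both miR-26a arrays lay above them. The difference was 0.44 ± 0.07, or 1.36-fold (limma, adjusted p = 0.025). Differences of Pgk1, Eno1, Eno3 and Pkm2, which carry out the neighbouring steps, lay between 0.10 and 0.25 and did not pass. Gapdh, often used as a reference gene, was measured by 8 probes that differed from control by -0.11 to 0.05 with miR-26a and by -0.17 to 0.10 with the sponge. Of these probes 6 are placed on chromosome 6 at Gapdh itself and the others on chromosomes 7 and 8, and the Pgk1 probe is placed on chromosome 3 although Pgk1 is X-linked, so that near-identical copies may share their signal and these values are uncertain. Eno2, Pgam2 and Pklr, which are mainly known from neurons, muscle and liver, were above background on 0, 1 and 1 of the 6 arrays and were not tested.

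Pfkfb3 was the member that fell most. The enzyme makes fructose 2,6-bisphosphate, the activator of phosphofructokinase, and has the highest kinase over phosphatase activity of the Pfkfb family. Its brightest probe (A_55_P2116165, chr2:11393453-11393512, mm9) read 12.37 and 12.39 in control cells, 11.58 and 11.57 in miR-26a cells, and 12.63 and 12.51 in sponge cells. The replicates were close, and the miR-26a arrays lay below all others with no overlap. The difference was -0.80 ± 0.07, or 0.573-fold (limma, adjusted p = 0.00663). Pfkfb3 is in the study's own list of putative miR-26 targets, which holds genes that were repressed on these arrays and also predicted as targets. Its fall here is therefore no independent evidence. A second probe spans a splice junction (chr2:11404189-11405602, minus strand) and is shown because it covers another part of the gene than the brightest probe.
Pfkfb3 probe A_52_P362917: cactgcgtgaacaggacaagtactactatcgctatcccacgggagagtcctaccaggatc
This probe was much dimmer, at 6.93 and 6.85 in control cells, 5.97 and 6.42 in miR-26a cells, and 6.68 and 6.76 in sponge cells, and fell by 0.70 on the log2 scale (SE 0.13, limma, adjusted p = 0.0354). Its miR-26a arrays were again the lowest of the 6. The array lists different RefSeq transcripts for the 2 Pfkfb3 probes, and whether they read different splice variants was not tested. The other enzymes of this family had positive differences that did not pass, 0.23 for Pfkfb1, 0.18 for Pfkfb2 and 0.27 for Pfkfb4.

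Of the lactate dehydrogenases Ldha, which favours lactate formation, had 3 tested probes, with differences of 0.22 to 0.27 in miR-26a cells, and none passed. Its brightest probe read 16.52 and 16.38 in control cells, 16.81 and 16.62 in miR-26a cells, and 16.87 and 16.48 in sponge cells, so that the miR-26a and sponge ranges overlapped. Ldhb was above background on 0 of 6 arrays.

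At the entry of pyruvate into the mitochondrial cycle, Pdha1 fell and Pdk1 rose. Pdha1 encodes the E1 alpha subunit of pyruvate dehydrogenase, and Pdk1 encodes a kinase that phosphorylates and inactivates it. Pdha1 read 11.47 and 11.39 in control cells, 11.06 and 10.86 in miR-26a cells, and 11.44 and 11.35 in sponge cells. The miR-26a arrays were below all others, and the difference was -0.47 ± 0.07 or 0.722-fold (limma, adjusted p = 0.0196). Pdk1 read 6.17 and 6.03 in control cells, 6.80 and 6.68 in miR-26a cells, and 6.51 and 5.98 in sponge cells, so that the sponge arrays spanned the control range from below to above. The difference of miR-26a from control was 0.64 ± 0.12, or 1.56-fold (limma, adjusted p = 0.0307), and 0.35 with normexp background correction. Pdk3 differed by 0.05 and did not pass. Pdk2 had a probe above background on all 6 arrays that was too dim to be tested, and Pdk4 was above background on 0 arrays.

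The 4 pentose phosphate members were tested and none passed with miR-26a. The log2 differences were 0.08 for G6pdx and 0.23 for Pgd, the NADPH-forming dehydrogenases, and 0.03 for Taldo1 and 0.09 for Tkt, which recycle pentoses. All 4 were above 0, with a median of 0.08.

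**Figure D2:**
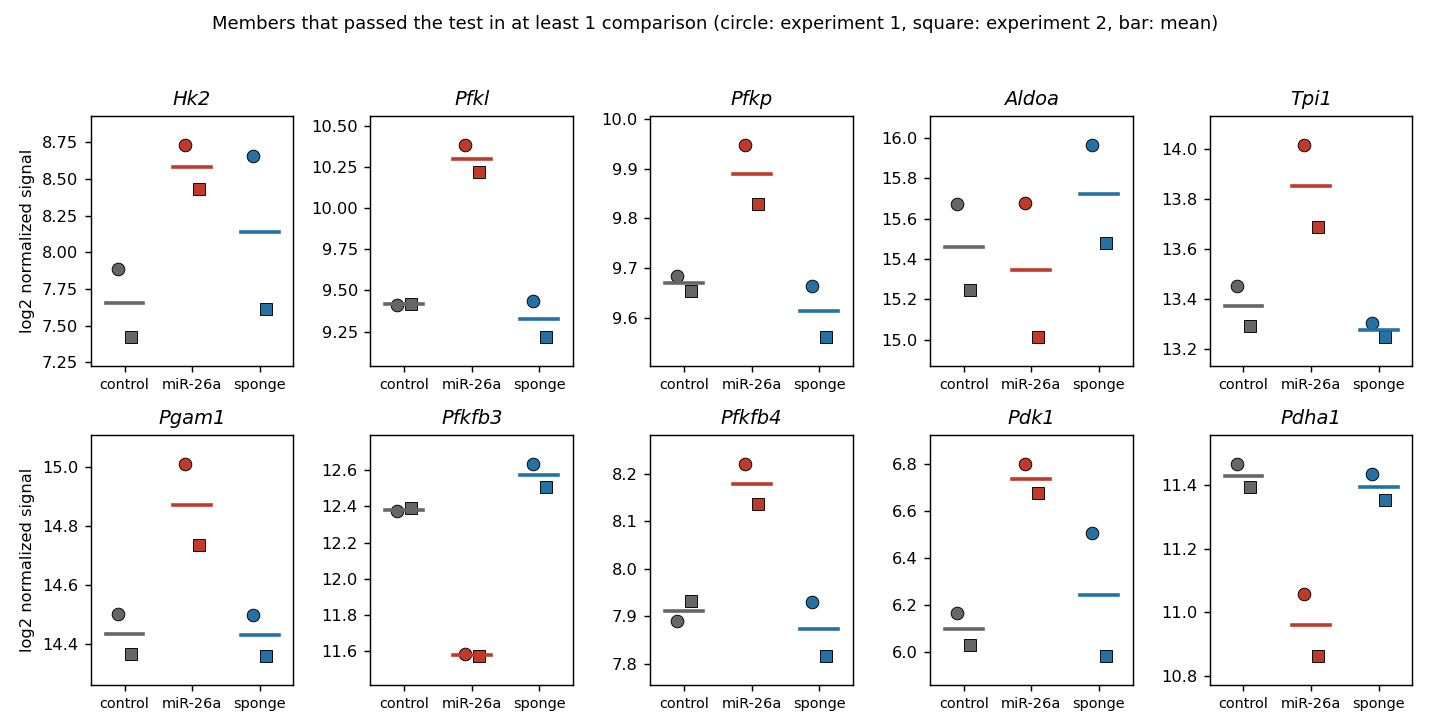
Log2 normalized signal on each of the 6 arrays for the 10 genes whose brightest probe passed in at least 1 of the 3 comparisons, by group. Circles are experiment 1, squares experiment 2 and bars group means, and each panel has its own vertical axis that does not start at 0. For Pfkl, Tpi1 and Pgam1 both miR-26a points lie above all other points, and for Pfkfb3 and Pdha1 below them.

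Most members, with those that passed included, lay on the same side. In miR-26a cells 22 of 27 genes (81.5%) had a difference above 0, against 54.2% of all genes tested, and 20 (74.1%) were above 0 in both experiments, against 40.3% of all genes. The member median was 0.17 in experiment 1 and 0.16 in experiment 2, and the middle of the set, between its quartiles, ran from 0.04 to 0.26. These shares describe a list of related genes and were not tested. Leaving out any 1 array left fewer genes passing, among the members and among all genes tested. The fall was largest without either control replicate, so that the calls depend on both control arrays. The member median was 0.12 without control replicate 1 and 0.16 without control replicate 2. It was 0.18 without miR-26a replicate 1 and 0.16 without miR-26a replicate 2. In the fit that ignores the experiment, Pfkfb3 (limma, adjusted p = 0.0198) and Pfkl (limma, adjusted p = 0.029) passed, beside 165 lower and 47 higher of all genes tested. Hk2, Tpi1, Pgam1, Pdk1 and Pdha1 had limma adjusted p between 0.0886 and 0.271 in that fit.

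**Figure D3:**
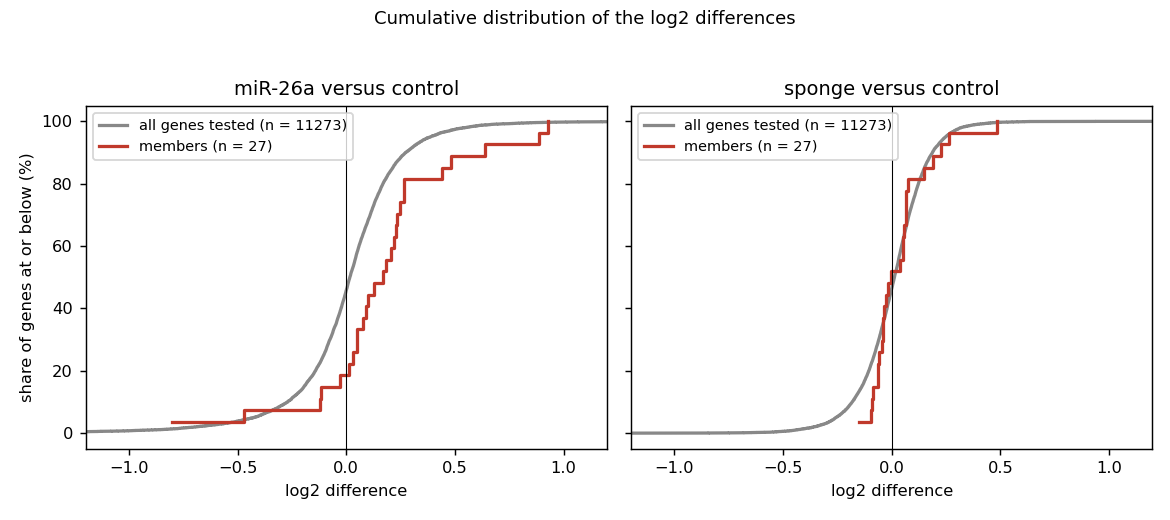
Cumulative share of genes, in percent, at or below a given log2 difference for miR-26a versus control and sponge versus control, for all 11273 genes tested (grey) and the 27 members (red). With miR-26a the member curve lies to the right of the curve of all genes over most of its range, with Pfkfb3 and Pdha1 far to the left, and with the sponge both curves cross near 0.

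In sponge cells no member passed against control. Over all genes tested, 0% passed as lower and 0.00887% as higher, so that the count of members was like the background. At an unadjusted p under 0.05, 0 members were lower and 4 (14.8%) were higher, beside 7.33% and 7.28% of all genes tested. These 4 were Hk2, Aldoa, Ldha and Pfkfb3, with log2 differences of 0.48, 0.26, 0.23 and 0.19. In the fit that ignores the experiment the count of higher members was 0, beside 288 of all genes tested in place of 821. With a control or sponge array left out, the count of members moved up or down with that of all genes. The Hk2 difference was 0.15 without sponge replicate 1 and 0.81 without sponge replicate 2, and the Aldoa difference 0.29 and 0.23. The member median was -0.00, against 0.01 for all genes, and 13 of 27 genes were above 0. The 95% intervals of the members reached between 0.17 and 0.44 to either side of the estimate, which is as wide as or wider than most of these differences. For Pfkfb3 the interval ran from 0.01 to 0.37, and the second Pfkfb3 probe gave -0.17 with an interval from -0.51 to 0.16, so that the probes did not give a common direction. The 3 Ldha probes ran from -0.11 to 0.23, with 2 of them above 0, and did not give a common direction either. For Pfkl the interval was -0.29 to 0.12, for Pgam1 -0.19 to 0.18 and for Pdha1 -0.21 to 0.14.

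Set directly against sponge cells, miR-26a cells had 3 lower genes (11.1%, against 9.46% of all genes tested) and 6 higher genes (22.2%, against 8.86%). The lower genes were Pfkfb3, Pdha1 and Aldoa, and the higher genes Pfkl, Tpi1, Pgam1, Pdk1, Pfkfb4 and Pfkp. The log2 difference was -0.99 ± 0.07 for Pfkfb3 (limma, adjusted p = 0.0029) and 0.97 ± 0.08 for Pfkl (limma, adjusted p = 0.00365). Differences of Tpi1, Pgam1, Pdk1 and Pdha1 were 0.58, 0.44, 0.49 and -0.43. Hk2, at 0.44 ± 0.18, did not pass in this comparison (limma, adjusted p = 0.144).

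A trio of genes passed here and not against control. Aldoa read 15.67 and 15.25 in control cells, 15.68 and 15.01 in miR-26a cells, and 15.97 and 15.48 in sponge cells. The ranges of the groups overlapped, and it was the difference within each experiment that passed, -0.38 ± 0.08 (limma, adjusted p = 0.0367). Pfkfb4 read 7.89 and 7.93 in control cells, 8.22 and 8.14 in miR-26a cells, and 7.93 and 7.82 in sponge cells. Pfkp read 9.69 and 9.66 in control cells, 9.95 and 9.83 in miR-26a cells, and 9.66 and 9.56 in sponge cells. For both genes the miR-26a arrays lay above all others, with differences from the sponge of 0.30 ± 0.07 and 0.27 ± 0.07 and adjusted p of 0.046 and 0.0483 by limma, just inside the threshold. The dimmest Ldha probe, at 11.34 and 11.11 in control cells, 11.61 and 11.27 in miR-26a cells, and 11.23 and 11.01 in sponge cells, also passed (0.32 ± 0.07, limma, adjusted p = 0.0358), whereas the brightest Ldha probe gave 0.04.

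With any 1 array left out, fewer genes passed in this comparison, among the members and among all genes tested. Over these fits the difference ran from -1.06 to -0.93 for Pfkfb3 and from 0.90 to 1.04 for Pfkl. Pfkfb4 and Pfkp passed in none of these fits with an array left out. The Pdk1 difference was 0.30 without sponge replicate 2 and 0.26 with normexp background correction.

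**Figure D4:**
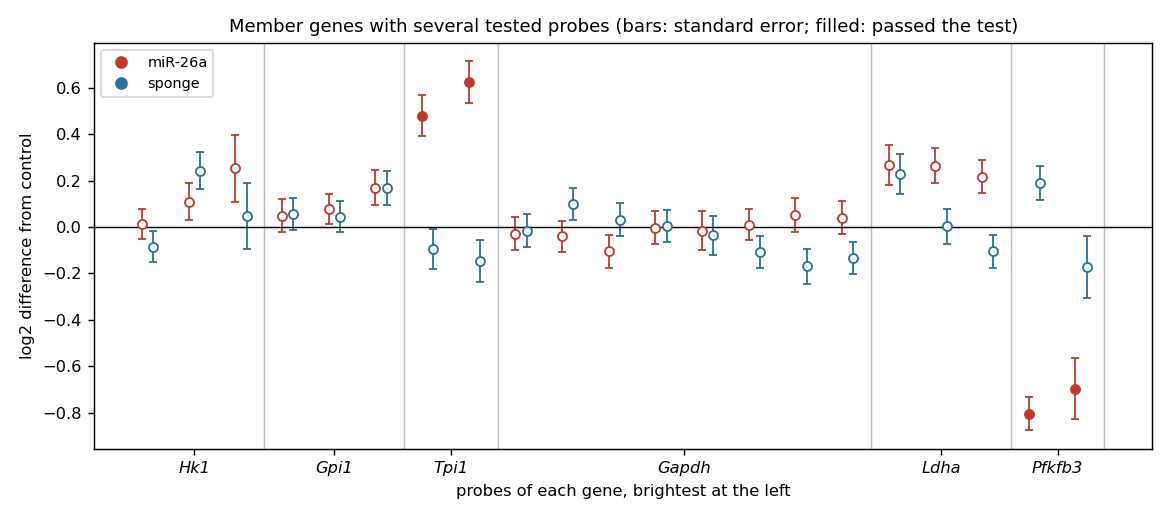
Log2 difference from control for every tested probe of the 6 member genes with several tested probes, for miR-26a (red) and the sponge (blue), with probes ordered from the brightest and standard errors as bars. Filled points passed the test. Both Tpi1 probes are filled above 0 and both Pfkfb3 probes below 0 for miR-26a, while the 8 Gapdh probes lie near 0.

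The promoters of the members were examined for short words that are known as cores of E-box and hypoxia response elements, ACGTG and GCGTG, which Myc-type and Hif-type factors bind and which are known from glycolytic genes. In the 250 bases before the annotated start (RefSeq, GRCm38.p6, both strands), 29 of the 34 members (85.3%) held ACGTG or GCGTG in at least 1 promoter. So did 41.5% of all 27025 genes with a promoter sequence. Of the 27 tested members 25 did, but the genes they are set beside were not limited to tested ones. The full E-box CACGTG, which contains ACGTG, was found for 5 of the 34 members (14.7%), 4 of them tested, and 6.86% of all genes. The words hold CpG steps, and member promoters were richer in G and C, with a median of 58.4% against 52.4% over all promoters. All 34 members matched a promoter, and several have more than 1. Members had 55 promoters, and the 27025 genes had 32851, so that members had more promoters per gene in which a word could be found. These shares were not tested. The last 100 bases before the start are shown for 4 members that rose or fell and held a word there, with the words in capitals.
Hk2, chr6:82774455-82774554, minus strand: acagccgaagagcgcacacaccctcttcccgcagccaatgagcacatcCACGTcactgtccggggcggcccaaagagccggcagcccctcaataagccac
Pgam1, chr19:41911771-41911870, plus strand: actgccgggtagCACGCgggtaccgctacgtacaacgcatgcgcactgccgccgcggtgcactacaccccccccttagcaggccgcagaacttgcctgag
Pfkl, chr10:78009808-78009907, minus strand: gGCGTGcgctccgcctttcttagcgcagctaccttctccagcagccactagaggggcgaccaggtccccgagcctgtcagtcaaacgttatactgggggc
Pfkfb3, chr2:11502091-11502190, minus strand: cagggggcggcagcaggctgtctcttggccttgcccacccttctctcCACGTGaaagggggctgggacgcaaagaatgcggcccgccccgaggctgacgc
The capitals mark these words on either strand. Genes that rose (Hk2, Pfkl, Pgam1), the gene that fell most (Pfkfb3) and genes that did not pass all held such words, whereas the Tpi1 promoter held none. A word match is a description of the sequence and no evidence of binding.

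Other genes of the same routes, together with transport, hypoxia and glucose sensing genes, were counted in 6 lists. These lists, called other pathway genes here, held 81 symbols, 76 of them on the array and 55 tested. With miR-26a 7 of the 55 (12.7%) rose and 1 (1.82%) fell against control, beside 5.19% and 5.86% of all genes tested, and with the sponge 0 passed. With either control replicate, either sponge replicate or miR-26a replicate 2 left out, fewer of the 55 genes rose with miR-26a. Fewer of all genes tested rose in these fits too. The median was 0.08 with miR-26a and 0.06 with the sponge. Among the enzymes, Rpia, which makes ribose 5-phosphate, rose by 0.60 ± 0.07 (limma, adjusted p = 0.00912), and Pcx, which carboxylates pyruvate to oxaloacetate, by 0.58 ± 0.07 (limma, adjusted p = 0.0131). Slc2a1, the glucose transporter of most dividing cells, rose by 0.44 ± 0.08 and Pdp2, a phosphatase that reactivates pyruvate dehydrogenase, by 0.40 ± 0.07. Of the 4 tested transport genes, Slc2a1 was the 1 that rose and 0 fell, but their median was -0.21. The gene 9630033F20Rik, the array's name for Tigar, a fructose 2,6-bisphosphatase, rose by 0.37 ± 0.07.

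Rpia read 11.50 and 11.60 in control cells, 12.10 and 12.20 in miR-26a cells and 11.41 and 11.46 in sponge cells, and Slc2a1 read 10.73 and 10.54, 11.14 and 11.01, and 10.93 and 10.61 in the same order. For both genes the miR-26a arrays were the highest. Of 18 tested hypoxia factor genes and hypoxia targets, Ero1l (0.50 ± 0.08) and Ankrd37 (0.45 ± 0.08) rose and Ndrg1 fell. Ndrg1 read 7.21 and 7.08 in control cells, 6.17 and 6.23 in miR-26a cells, and 7.47 and 7.41 in sponge cells, a difference of -0.95 ± 0.08 from control (limma, adjusted p = 0.00547), and -0.52 with normexp background correction. The hypoxia list thus held genes on both sides, with a median of 0.08.

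Against the sponge 6 of the 55 genes (10.9%) were higher and 3 (5.45%) lower, beside 8.86% and 9.46% of all genes tested, so that these shares were near or below the background. With either sponge replicate left out, fewer genes passed against the sponge, among the 55 and among all genes tested. Pcx, Rpia, Txnip, Pdp2, Pgm2 and Ero1l were higher, by 0.71, 0.71, 0.62, 0.43, 0.37 and 0.36. Ndrg1, Pdhx, the E3 binding protein of pyruvate dehydrogenase, and Bnip3 were lower, by -1.24, -0.63 and -0.27. Pdhx read 9.95 and 9.93 in miR-26a cells, below both control arrays at 10.33 and 10.20, and both sponge arrays lay above the control arrays.

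**Figure D5:**
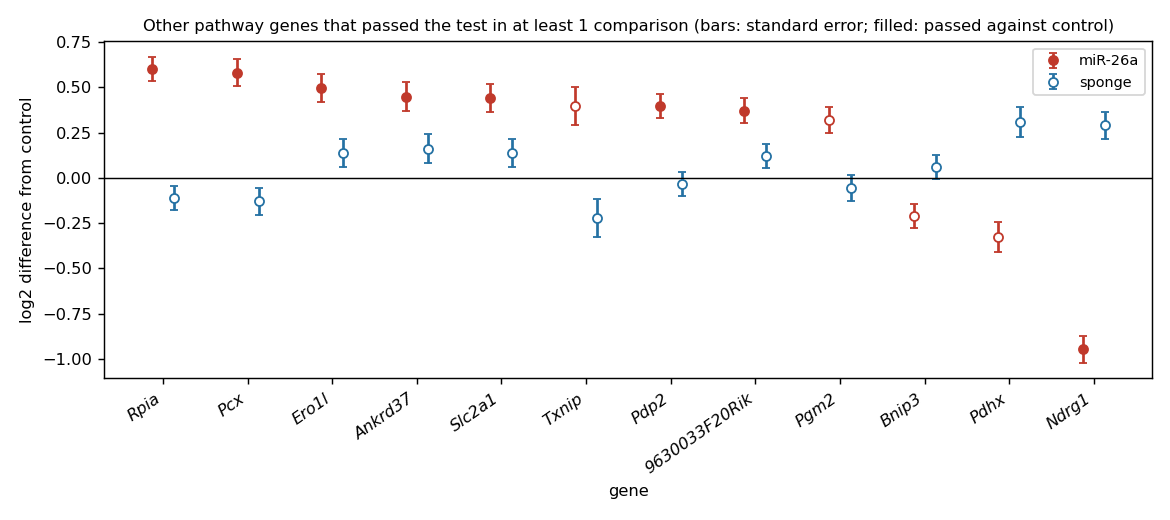
Log2 difference from control, with standard errors, of the 12 other pathway genes that passed in at least 1 of the 3 comparisons, for miR-26a (red) and the sponge (blue). Filled points passed against control. For miR-26a, 7 filled points lie above 0 and Ndrg1 lies near -0.95, and no sponge point is filled.

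Markers of other cell types were read beside these changes. The mature B cell marker Cr2 rose by 1.18 ± 0.07 with miR-26a (limma, adjusted p = 0.00313) and by 0.08 ± 0.07, not passing, with the sponge. Of the 3 mature B cell symbols 2 were on the array and Cr2 was the gene tested, and the summed signal of the pair was 320.7 to 364.0 in control, 694.7 to 781.8 in miR-26a and 315.4 to 406.2 in sponge cells. Of 7 myeloid markers 2 could be tested, Itgam and Csf1r, and neither passed by its brightest probe, with summed signals of 3281 to 4377, 3568 to 4263 and 2793 to 4197 in control, miR-26a and sponge cells. A dimmer Itgam probe fell by 0.82 on the log2 scale with miR-26a (SE 0.08, limma, adjusted p = 0.0072). Among the T cell markers Cd3e was tested and did not pass, and of the 3 erythroid markers none was tested, with Hbb-b1 and Gata1 above background on 0 arrays. The part of these cell types in the changes of the pathway genes was not tested.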

How the data were processed

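The authors hybridised Cy3-labelled RNA to Agilent mouse 8 × 60K arrays and deposited the scanner files and a table of quantile-normalized intensity. The processed signal of the scanner files is a background-corrected intensity on a linear scale (mm9 positions). The submitters' processing notes name Agilent Feature Extraction 10.7.1.1, whereas the scanner headers of the arrays name 10.7.3.1. Starting from the scanner files, quantile normalization was applied to the processed signals, outlier spots were left out, and the log2 values of a probe's spots were averaged. Probes above background on at least 1 array and with a signal above 50 on at least 4 arrays were tested (20168 of 55681 probes) with limma 3.58.1 in R 4.3.3, in 1 fit over the 6 arrays that takes the experiment as a block, since the study's methods normalize to the control of each experiment. Same-numbered arrays, which shared an experiment and a slide row, deviated together (r 0.379 to 0.588). Arrays give no count depth, and their number limits the precision. The fit was tested on simulated data. Symbols of the array are old for some genes (Pkm2 for Pkm). Every member is named, with each array's value where a probe passed or, for the sponge, for the largest differences. The members and lists were chosen with earlier results of these data known, and the promoter words were picked during the analysis. p-values measure how the differences between groups varied over 2 experiments of 1 cell line. The shift that all arrays of an experiment shared was taken out by the block, and the groups shared 1 estimate of the spread.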

Additional observations from a re-analysis of the deposited data

How the results depend on the processing

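No difference of a named gene that passed in any of the 3 comparisons changed its direction under the alternatives. Leaving out the block, changing the filter and fitting only the 4 arrays compared left the estimates of the passing members unchanged. Leaving out an array of the group not compared did so too, so that none of these fits could change a direction. With the experiment left out as a block, the pairing of same-numbered arrays was not used. Then 1 member was lower and 1 higher for miR-26a versus control, beside 165 and 47 of all 11273 genes, in place of 661 and 585. For miR-26a versus sponge the members were 1 and 1, beside 433 and 212 of all genes, in place of 1066 and 999. In at least 1 comparison 4 other pathway genes passed in place of 12. With no filter on dim probes 0 members passed in any comparison and 0 other pathway genes did, and of all genes 0 passed for miR-26a versus control. With probes above background on all 6 arrays, 1 and 1 members passed against control, 2 and 2 against the sponge, and 5 other genes. Of the 12870 genes tested with that filter, 248 were lower and 104 higher against control, and 559 and 340 against the sponge. A signal above 50 on at least 2 arrays, array weights, and a fit of only the 4 arrays compared each gave 3 higher members against the sponge in place of 6. The higher genes among all genes were 881, 625 and 449 in the same order, in place of 999. The fit of 4 arrays gave 3 higher members against control, beside 311 of all genes in place of 585, and 7 other genes. Leaving out 1 array at a time gave 0 to 2 lower and 0 to 3 higher members for miR-26a versus control, 1 to 3 lower and 1 to 3 higher for miR-26a versus sponge, and 4 to 9 other genes, with the lone array of a group assumed to vary like the other groups. Scaling by the upper quartile of each array, background correction by normexp, the authors' table and the mean of the probes of a gene changed by no more than 1.5 times the counts of members and of other genes that passed after adjustment, and the sponge versus control count of members was 0 in all 16 alternatives. At an unadjusted p under 0.05 the 4 higher members of sponge versus control became 2 with the mean of probes, 1 with the filter on all 6 arrays and 0 with no filter. The higher genes among all genes were 783, 705 and 902 in the same order, in place of 821. For sponge versus control over all genes, normexp gave 15 lower and 3 higher in place of 0 and 1. The cause of these differences was not tested. The median of the members for miR-26a versus control was 0.11 to 0.18 over the alternatives.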
